A study of Mus musculus with 8 samples.

Results

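Among the genes of mouse autosomes, 81 carried H3K27me3 CUT&RUN reads that lay mainly on the second allele in female primordial germ cells (PGCs, from which eggs and sperm arise) at E12.5 and at E11.5. They were chosen among 20368 autosomal genes by their reads. A gene was eligible if it had 10 or more allelic reads in each H3K27me3 library, 20 or more in the E13.5 IgG library and a second-allele share (second-allele reads as a percent of the reads of both alleles) of 40 to 60% in that IgG library. Of the 12924 eligible genes, 86 had a share of at least 70% in both H3K27me3 libraries. The rule then left out 14 genes that it names, mostly imprinted genes and their neighbours, 5 of which had passed (Gnas, Grb10, Slc38a1, Tnfrsf22 and Tnfrsf23). The 81 members are 0.627% of the eligible genes. The same thresholds on the other side, a share of 30% or less in both H3K27me3 libraries, held 68 genes.

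The libraries were made from FACS-sorted PGCs of pooled embryos of 1 sex. All were B6 x Cast hybrids with the Oct4-eGFP+/- reporter genotype. The H3K27me3 libraries came from Xist KO/+ females at E12.5 and at E11.5. The IgG libraries, in which the antibody has no chromatin target, came from Xist KO/Y males (E11.5) and Xist KO/+ females (E12.5 and E13.5). Every animal thus carried an Xist knockout allele and no group without it was available. Each group had 1 library with a file, so there is no replicate check and no test between conditions, and intervals cover counting error only. The libraries held 1378513 to 5880641 allelic reads. The files do not name the strain of either allele. In the male IgG library 6.30% of X reads lay on the second allele, so the maternally inherited X of these males was read as the first. With 1 kind of hybrid in the labels, strain and parent of origin cannot be told apart.

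H3K27me3 is deposited by Polycomb repressive complex 2 on the promoters and bodies of silent genes, above all on developmental regulators that a cell type does not use. Most such genes carry the mark on both copies. An unequal split can follow DNA sequence differences between strains or parental origin, as is known of imprinted genes and of genes that inherit maternal H3K27me3 from the oocyte. PGCs at these stages lose most DNA methylation and reset imprints.

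Promoters of 3 members are printed as examples that differ in their number of CG. They are RefSeq windows of GRCm38.p6 (mm10), from 250 bases before to 50 after a gene start, with CG in capitals. Prickle1 (a planar cell polarity gene, the upstream of 2 starts, chr15:93595853-93596152, minus strand) has 39 CG in 300 bases. Pck2 (mitochondrial phosphoenolpyruvate carboxykinase, chr14:55540016-55540315, plus strand) has 9, and Rragd (a Rag GTPase of lysosomal amino acid sensing, chr4:32982748-32983047, plus strand) has 6.
Prickle1: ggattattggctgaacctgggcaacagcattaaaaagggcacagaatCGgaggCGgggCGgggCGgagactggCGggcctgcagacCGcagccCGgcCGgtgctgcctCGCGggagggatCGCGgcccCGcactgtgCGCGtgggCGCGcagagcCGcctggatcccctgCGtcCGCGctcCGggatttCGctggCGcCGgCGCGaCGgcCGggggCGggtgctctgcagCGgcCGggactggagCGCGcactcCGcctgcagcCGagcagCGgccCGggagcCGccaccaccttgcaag
Pck2: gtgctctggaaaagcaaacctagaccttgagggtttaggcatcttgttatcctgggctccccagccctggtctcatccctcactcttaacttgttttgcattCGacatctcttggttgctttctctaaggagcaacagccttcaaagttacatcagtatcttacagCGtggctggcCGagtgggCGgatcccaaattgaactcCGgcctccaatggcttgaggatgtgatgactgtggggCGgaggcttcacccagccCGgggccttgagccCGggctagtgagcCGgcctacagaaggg
Rragd: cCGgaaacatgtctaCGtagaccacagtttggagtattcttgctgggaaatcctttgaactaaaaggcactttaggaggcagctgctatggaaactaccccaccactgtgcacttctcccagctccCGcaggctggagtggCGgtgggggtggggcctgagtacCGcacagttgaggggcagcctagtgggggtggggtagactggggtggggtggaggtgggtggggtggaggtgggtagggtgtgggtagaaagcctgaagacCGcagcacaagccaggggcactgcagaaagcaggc
Of the 32851 promoter windows in the table, 94.6% hold at least 1 CG (searched as CG, which is its own complement), with a median of 7. The reads were counted over whole genes, so these letters are not tied to where in a gene the mark lay. Promoter windows were found for 60 of the 81 members (74.1%). A comparison of base composition is void at this coverage, since 80% was required.

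The values that chose the members were as follows, and they are given as a description. At E12.5 the members' shares ran from 70% to 91.0% with a median of 73.5%. At E11.5 they ran from 70% to 100% with a median of 75.3%. The eligible genes had medians of 49.8% and 50% at these stages. In IgG E13.5 the members had a median of 52.3% (40.4 to 60%), against 50% over the eligible genes. Pooled over members, 22192 of 29201 reads lay on the second allele at E12.5 (76.0%, exact Clopper-Pearson 95% interval 75.5 to 76.5) and 11255 of 14707 at E11.5 (76.5%, 75.8 to 77.2). Pfkm, Prl3d3 and Rpusd3 lay just inside the threshold, each with a lower share of 70%. Stx11 (69.9%), Peli3 (69.8%) and Nefm (69.8%) lay just outside it.

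**Figure D1:**
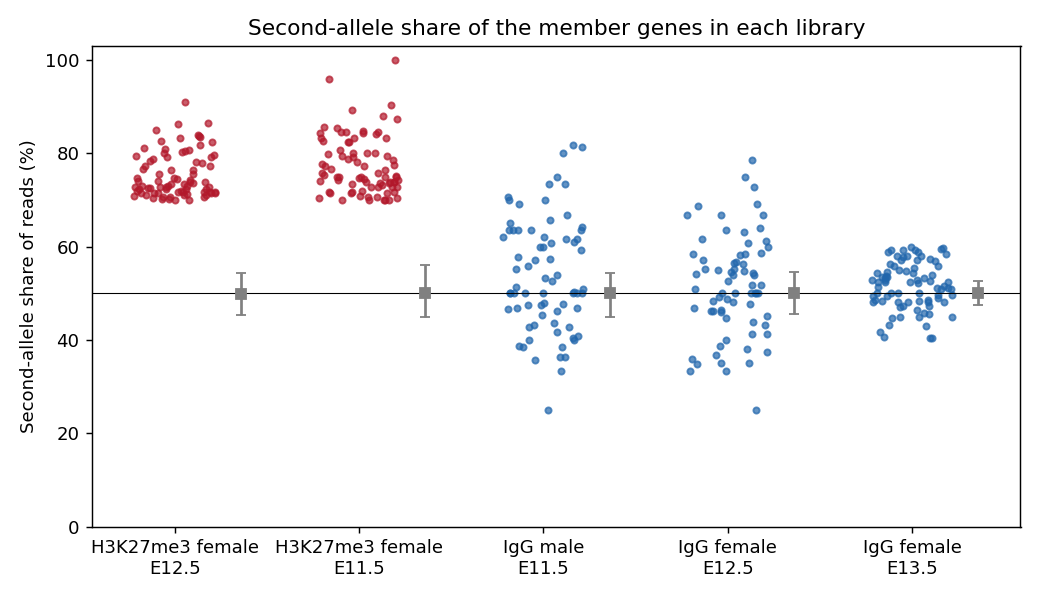
Second-allele share of reads (%, linear axis) of the member genes with at least 10 reads in each of the 5 libraries. Red points are H3K27me3 and blue points IgG, and grey squares with bars are the median and interquartile range of the eligible autosomal genes. By the rule's construction all members lie at 70% or more in both H3K27me3 libraries and between 40 and 60% in IgG E13.5. In the other IgG libraries they spread around medians of 51.4% (male E11.5) and 51.3% (female E12.5).

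The members differed widely in depth. At E11.5, 30 members had at least 100 reads, 14 had 50 to 99, 18 had 20 to 49 and 19 had 10 to 19. These are 0.659%, 0.531%, 0.476% and 0.973% of the eligible genes of each depth. The share of a gene with 10 reads has a wide interval. Rpusd3, a mitochondrial pseudouridine synthase gene, had 11 of 15 second-allele reads at E12.5 and 7 of 10 at E11.5. Tstd2 had 26 of 37 at E12.5 and 10 of 10 at E11.5, the widest difference between stages. Over all members the share at E12.5 minus that at E11.5 had a median of -1.63 points, against -0.51 over the eligible genes. Among the 30 members with at least 100 reads at E11.5 it ran from -7.05 to 8.44 points.

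The IgG libraries that the rule did not use showed no such split. In IgG E12.5, 70 members had at least 10 reads and a median share of 51.3% (interquartile range 45.4 to 58.3), and over all members 2796 of 5570 reads lay on the second allele (50.2%, 48.9 to 51.5). In the male IgG library 73 members had a median of 51.4% (46.2 to 63.6) and a pooled share of 51.2% (49.8 to 52.7). The exact two-sided binomial test against the library's pooled autosomal share, with Benjamini-Hochberg adjustment over all autosomal genes with 10 reads, called 0 members in IgG E12.5 and 0 in male IgG. In IgG E12.5 it called 3.46% of all 14661 genes tested and 0.763% of the eligible ones, and in male IgG 3.66% of 14026 and 0.994%. At the eligible shares, 70 and 73 members are too few for a count of 0 to set them apart. At an unadjusted p under 0.05 the binomial test picked out 5 of 70 members in IgG E12.5 and 6 of 73 in male IgG, against 7.07% and 8.06% of the eligible genes. Tested against an even split instead, 1 member was called in IgG E12.5, Prickle1 (adjusted p = 0.0487, exact binomial test), with 61.3% of 199 reads on the second allele.

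Certain members nevertheless leaned to the second allele in IgG. A share of 70% or more was found in 3 of 70 members in IgG E12.5, where 1.52% of eligible genes lay that high, and in 9 of 73 members in male IgG, against 2.01%. Those in IgG E12.5 were Fcgr4 (78.6% of 14 reads), Npy (72.7% of 11) and Vmn2r-ps159 (75% of 16). Those in male IgG were Igfbp1, Klhl35, Ly6a, Ndufc2, Rbfa, Rragd, Tagap, Thap1 and Trim34b. All but Rragd, at 70.6% of 51 reads, had 10 to 16 reads there. The members had a median of 20 reads in male IgG, against 44 over the eligible genes. Prickle1 stood at 59.3% in male IgG, 61.3% in IgG E12.5 and 57.9% in IgG E13.5, below its H3K27me3 values of 84.0% at E12.5 and 84.3% at E11.5.

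Levels of single alleles are in RPM, with autosomal allelic reads as the library total, and a fold is the H3K27me3 level over the IgG level with 1 added to both. Over the eligible genes the median fold lay below 1, at 0.719 for the second and 0.730 for the first allele at E12.5 against IgG E13.5 (log2 -0.48 and -0.45), and at 0.732 and 0.724 at E11.5 (-0.45 and -0.47). A fold is therefore also given relative to that median. The members' second allele had a median fold of 1.87 at E12.5 and 1.90 at E11.5, which is 2.60 times the eligible median at both stages. Their first allele had a median fold of 0.728 at E12.5 and 0.701 at E11.5, or 0.996 and 0.968 times the eligible median. The first allele of the typical member thus sat at the level of the typical gene, and the second above it. The second allele was at least 2-fold above IgG E13.5 in 38 members at E12.5 and in 38 at E11.5, against 14% and 15.3% of the eligible genes. The rule used these reads, so this is a description of the chosen genes.

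The pooled reads gave the same order. The members' second-allele reads were 2.89-fold those of IgG E13.5 at E12.5 (exact counting interval 2.82 to 2.96) and 3.12-fold at E11.5 (3.04 to 3.21). Their first-allele reads were 0.936-fold (0.907 to 0.966) and 0.982-fold (0.944 to 1.02). With IgG E12.5 as the control, the second allele stood at 2.4-fold and 2.59-fold and the first at 0.763-fold and 0.80-fold. Relative to the median eligible gene the first-allele reads lay above 1, at 1.28 and 1.36. Shroom3 alone held 5773 of the members' 29201 reads at E12.5, and without it the second-allele folds over IgG E13.5 were 2.64 and 2.90 and the first-allele folds 0.826 and 0.858.

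**Figure D2:**
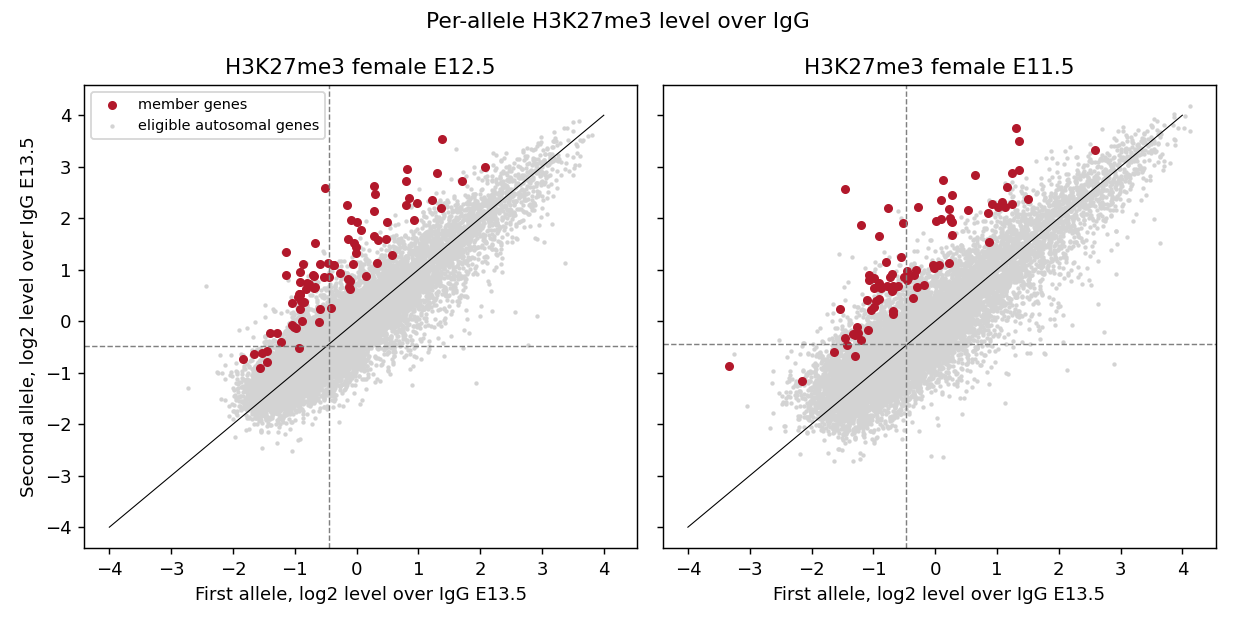
First-allele (x) and second-allele (y) H3K27me3 level over IgG E13.5 as log2 folds, at E12.5 (left) and E11.5 (right). Red points are the 81 members and grey points the 12924 eligible genes, the solid line marks equal folds and the dashed lines the eligible medians. The members form a band above the line that runs from genes with both alleles low to genes with both alleles enriched.

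The band held members of different kinds. In 38 of the 81 (46.9%) the second allele was above and the first below the IgG E13.5 level at both stages, a pattern of 2.59% of the eligible genes. In 24 (29.6%) both alleles lay above IgG, as in 25.1% of the eligible genes, and in 11 (13.6%) both lay below, as in 55.2%. Measured against the eligible medians, 27 had the second allele above and the first below (2.57% of the eligible genes), 33 had both above (37.4%) and 4 had both below (37.2%). Because the share rule selects for an excess of the second allele, these counts are not evidence about it.

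Among the 12 members with the most H3K27me3 reads, 5 had a second-allele excess on top of a first allele that was itself 1.75-fold to 2.46-fold the IgG E13.5 level at E12.5. Shroom3 (chr5:92683435-92965759), an actin-binding gene that drives apical constriction in neural tube closure, had 838 second-allele and 312 first-allele RPM at E12.5, against 187 and 193 in IgG E12.5. At E11.5 it had 848 and 338. Its first allele was 1.75-fold IgG E13.5 at E12.5 and 1.89-fold at E11.5, and its share was 72.9% (71.7 to 74.1) and 71.5% (69.8 to 73.2).

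Pou2f3 (chr9:43123927-43205755), the POU transcription factor of tuft cells, had 342 second-allele and 96.4 first-allele RPM at E12.5, against 64.7 and 78.5 in IgG E12.5. At E11.5 it had 400 and 142. Both alleles were above IgG E13.5 at both stages, the second 6.57-fold and 7.68-fold and the first 1.75-fold and 2.57-fold. Rasa4, a Ras GTPase-activating gene, Rhd, the Rh blood group membrane protein of red cells, and Sdc4, a heparan sulphate proteoglycan, shared this form. Their first-allele folds at E12.5 were 2.46, 1.98 and 1.76, and their second-allele folds 7.39, 4.89 and 7.75. The first-allele folds of the 5 genes depended on the control. Over IgG E12.5 at E12.5 they were 1.61 for Shroom3, 1.23 for Pou2f3, 1.45 for Rasa4, 1.41 for Rhd and 0.982 for Sdc4, so that of Sdc4 was no longer above IgG. At E11.5 the first allele of Rhd was at 0.853-fold IgG E12.5. The second-allele folds over IgG E12.5 at E12.5 were lower too, at 3.65 for Rasa4 and 4.09 for Sdc4.

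A further 5 of the 12 had a first allele well below IgG E13.5. The first allele of the median eligible gene also lay below IgG E13.5, at 0.730-fold at E12.5. Relative to that median the first alleles of the 5 were at 0.723 to 0.911 at E12.5. Wdfy3 (chr5:101832953-102072215), an autophagy scaffold gene, had 281 second-allele and 78.1 first-allele RPM at E12.5, against 164 and 177 in IgG E12.5. At E11.5 it had 269 and 70.4. Its level of both alleles together was 1.05-fold IgG E12.5 at E12.5 and 0.996-fold at E11.5, so the sum alone would not set it apart from IgG. Abcc4, an exporter of organic anions, Eps8, an actin-capping gene, Bcl2, the inhibitor of apoptosis, and Sh3bp4, an endocytic adaptor gene, were alike. Their first-allele folds ran from 0.530 to 0.666 at E12.5, and their second-allele folds were 1.43, 1.55, 1.64 and 2.15.

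Prickle1 (chr15:93499111-93596266) and Rragd (chr4:32982998-33022180) completed the 12. Prickle1 had 228 second-allele and 43.6 first-allele RPM at E12.5 and 235 and 43.7 at E11.5, against 80.5 and 50.8 in IgG E12.5. Its first allele was 1.0-fold IgG E13.5 at E12.5 and 1.01-fold at E11.5, the second 3.78-fold and 3.88-fold. Over IgG E12.5 its first allele was at 0.861-fold at E12.5. In Rragd the first allele was 1.22-fold at E12.5 and 2.24-fold at E11.5 and the share 83.6% and 75.2%, the widest difference between stages among the 12.

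**Figure D3:**
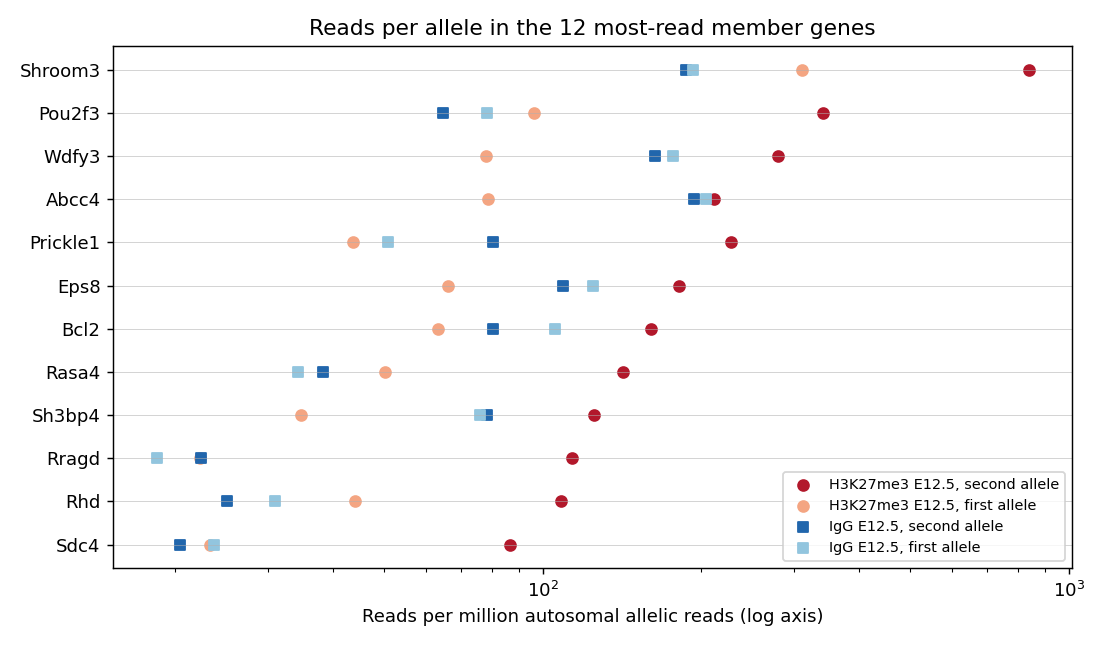
Level in RPM of autosomal allelic reads (log axis) on each allele of the 12 most-read members, in H3K27me3 E12.5 (circles) and IgG E12.5 (squares). The second-allele H3K27me3 value is the rightmost point in every row, and the first-allele H3K27me3 value lies right of both IgG values in Shroom3, Pou2f3, Rasa4 and Rhd and left of both in Wdfy3, Abcc4, Prickle1, Eps8, Bcl2 and Sh3bp4.

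The 5 members with the highest share over both stages together, among those with 40 or more reads at each, had few reads on the first allele. Pck2 (chr14:55540263-55550020), whose promoter is printed above, had 252 second-allele and 25 first-allele reads at E12.5 (91.0%, 87.0 to 94.1) and 117 and 5 at E11.5 (95.9%, 90.7 to 98.7). In IgG it was even at E12.5, with 15 reads on each allele, and at E13.5, which the rule used, with 43 on each. In male IgG 9 of its 13 reads lay on the second allele (69.2%). Ctnnal1 (chr4:56810935-56865375), an alpha-catenin-like gene, had 86.3% at E12.5 and 90.4% at E11.5, with 55% in IgG E12.5. Rgma, a BMP co-receptor that also repels axons, had 82.6% and 89.2%, with 51.7% in IgG E12.5. Chrnb4, a nicotinic acetylcholine receptor subunit, had 83.5% and 87.4%, with 54.4%, and Adcy6, an adenylyl cyclase, had 86.5% and 84.2%, with 61.6%. The first allele of Ctnnal1 was 0.453-fold IgG E13.5 at E12.5 and that of Chrnb4 0.936-fold.

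Taken as the sum of both alleles, the members' H3K27me3 level had a median of 1.22-fold IgG E12.5 at E12.5 and 1.38-fold at E11.5, against 0.658 and 0.668 over the eligible genes. At least 2-fold above IgG E12.5 were 25 members (30.9%) at E12.5 and 25 at E11.5, and 21 at both stages, against 13.4%, 13.2% and 11.2% of the eligible genes. The same reads entered the rule, so nothing is read from these counts. As a description of the measure, of the 7 genes listed as silent developmental regulators 4 were eligible and all 4 were past 2-fold at E12.5 (median 4.50). Of the 7 active in germ cells 2 were eligible and 0 were past it (median 0.453). The 12 eligible housekeeping genes had a median of 0.464. Eligibility itself needs H3K27me3 reads, so these few genes are no test of the measure. No RNA was measured, so the identity of the sorted cells could not be examined by expression. Per length, the members had a median H3K27me3 density of 1.54 RPM per kb at E12.5, against 0.773 over the eligible genes, and 1.47 against 1.21 in IgG E12.5. The members were shorter, with a median length of 14028 bases against 29626. Between stages the level of both alleles hardly differed, with a median E12.5 over E11.5 ratio of 0.956 and 1 of 81 members beyond 2-fold.

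The 6 highest levels over IgG E12.5 at E12.5, among members with at least 10 IgG reads, belonged to Sp6 (5.60-fold), Gimap5 (3.93), Npy (3.55), 1700008O03Rik (3.32), Rragd (3.27) and Pou2f3 (3.05). Sp6 (chr11:97013569-97024739), a zinc finger factor of tooth and skin development, had 300 second-allele and 113 first-allele reads at E12.5 and 178 and 76 at E11.5, against 14 and 7 in IgG E12.5. Its first allele was 4.23-fold IgG E13.5 at E12.5, the highest among the members at that stage. Gimap5 is a GTPase gene of lymphocyte survival, and Npy encodes the neuropeptide Y. The 4 lowest were Hmox2, a haem oxygenase gene (0.326-fold), 9130019O22Rik (0.372), Ndufa6 (0.380) and Ndufc2 (0.397), the last pair being subunits of respiratory complex I. Hmox2 had 29 H3K27me3 reads at E12.5 and Ndufc2 18, so their shares rest on few reads from genes whose level was below IgG. Ndufc2 also had 81.2% of 16 male IgG reads on the second allele. The part of such background reads in their shares was not tested.

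By their known roles the members spread over many functions. The roles were assigned by hand after the members were known, and 13 members with no clear role were left as other. The 3 transcription factor genes were Pou2f3, Sp6 and Thap1. Pou2f3 and Sp6 were among the most enriched, at 3.05-fold and 5.60-fold IgG E12.5. Thap1, a THAP-type factor, was at 0.75-fold with 36 reads and leaned to the second allele in IgG too, at 66.7% of 15 reads at E12.5 and 81.8% of 11 in males.

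Genes of the cytoskeleton, adhesion and cell polarity numbered 8, and 4 were past 2-fold over IgG E12.5 at E12.5 (Shroom3, Carmil3, Sdc4 and Prickle1), while Ctnnal1 was at 1.99. All 8 lay above the eligible median of 0.658. The group's median second-allele fold over IgG E13.5 was 3.15 at E12.5 and 3.75 at E11.5, with first-allele medians of 0.999 and 0.996. Kirrel2, a nephrin-like adhesion gene, had shares of 75.7% and 71.7%, with 38.7% of 31 reads in IgG E12.5.

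Signalling genes numbered 11, with second-allele medians of 3.0-fold at E12.5 and 4.57-fold at E11.5 and first-allele medians of 0.989 and 1.06. They included the semaphorin Sema4c (74.1% at E12.5 and 84.8% at E11.5), the retinoic acid binding protein gene Crabp1 (72.5% and 76.5%) and the secreted isthmin Ism2 (74.5% and 70.9%). Igfbp1, an IGF-binding protein gene, rested on 34 and 19 reads. Of the 11, Rasa4 and Rragd were past 2-fold over IgG E12.5, and all 11 lay above the eligible median.

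Neural genes numbered 4. Chrnb4 was described above, and Npy had 114 of 142 second-allele reads at E12.5 (80.3%) and 71 of 92 at E11.5 (77.2%). Gabrp, the pi subunit of GABA-A receptors, had 183 of 248 at E12.5 (73.8%) and 64 of 88 at E11.5 (72.7%), with 48.3% in IgG E12.5. Cplx3, a complexin of retinal synapses, had 75.6% and 75% on 41 and 28 reads. Its level was 0.524-fold IgG E12.5 at E12.5, below that of the median gene.

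Immune genes numbered 10, of which Ifngr2, a chain of the interferon-gamma receptor, was the most read. It had 318 of 412 second-allele reads at E12.5 (77.2%) and 155 of 184 at E11.5 (84.2%), with 46.4% in IgG E12.5. Gimap5, Ifngr2, Fcgr4 and Trim34b were past 2-fold over IgG E12.5 at E12.5. Fcgr4, an Fc receptor gene, and Trim34b, a TRIM gene, rested on 14 and 6 reads in that IgG library. The sialic acid lectin gene Siglecf (0.438-fold), the chemokine receptor Cxcr2 (0.687) and the lectin genes Clec2g (0.775) and Cd209c (0.896) lay below IgG. Of the 10 immune genes, 9 lay above the eligible median of 0.658. The symbols starting with Klr, Clec, Ly6 or H2- named 59 eligible genes and 2 members, Clec2g and Ly6a (3.39%, against 0.627% of all eligible genes). These families also hold near-identical copies.

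Chemosensory receptors numbered 7, 4 olfactory receptor genes out of 363 eligible (1.10%) and 3 vomeronasal genes out of 113 (2.65%), against 0.627% of all eligible genes. Vmn2r13, with 114 of 144 second-allele reads at E12.5 (79.2%) and 43 of 52 at E11.5 (82.7%), was the most read. The other 6 had between 27 and 76 reads at E12.5. These families hold near-identical copies, and the assignment of their reads is uncertain. That also applies to Prl3d3, a placental lactogen gene of a tandem family, which had 0 reads in IgG E12.5. Its level at E12.5 was at least 2.11-fold that of IgG E12.5, taken against a floor of 3 counts in that library, and the median and the count over the members above are the same with it at that bound.

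Metabolic and mitochondrial genes were the largest group, at 15, and low in level beside most other roles. Their median level of both alleles over IgG E12.5 was 0.707 at E12.5 and 0.798 at E11.5. Over the eligible genes the median was lower, at 0.658 and 0.668, and 8 of the 15 lay above the eligible median. The transport and trafficking group had medians of 0.751 and 0.707. Among the 15 metabolic and mitochondrial genes, Pck2 (2.70-fold) and Lpl, the lipoprotein lipase gene (2.59), were the 2 past 2-fold at E12.5. Dbt, a subunit of branched-chain keto acid dehydrogenase, had 79.4% of 344 reads at E12.5 and 85.3% of 218 at E11.5. Its first allele was 0.551-fold and 0.531-fold IgG E13.5. Ndufa6, Ndufc2, Rpusd3, Hmox2, the ectonucleotidase gene Entpd2 and the glyoxalase gene Glo1 had 39 or fewer reads at E12.5. Genes of transport and trafficking numbered 6, of which Wdfy3, Abcc4 and Rhd held most reads. Abca7, a lipid transporter gene, had 71.9% and 73.2%, and the cargo receptor gene Tmed2 and Slc35a4 rested on 17 and 27 reads at E12.5.

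**Figure D4:**
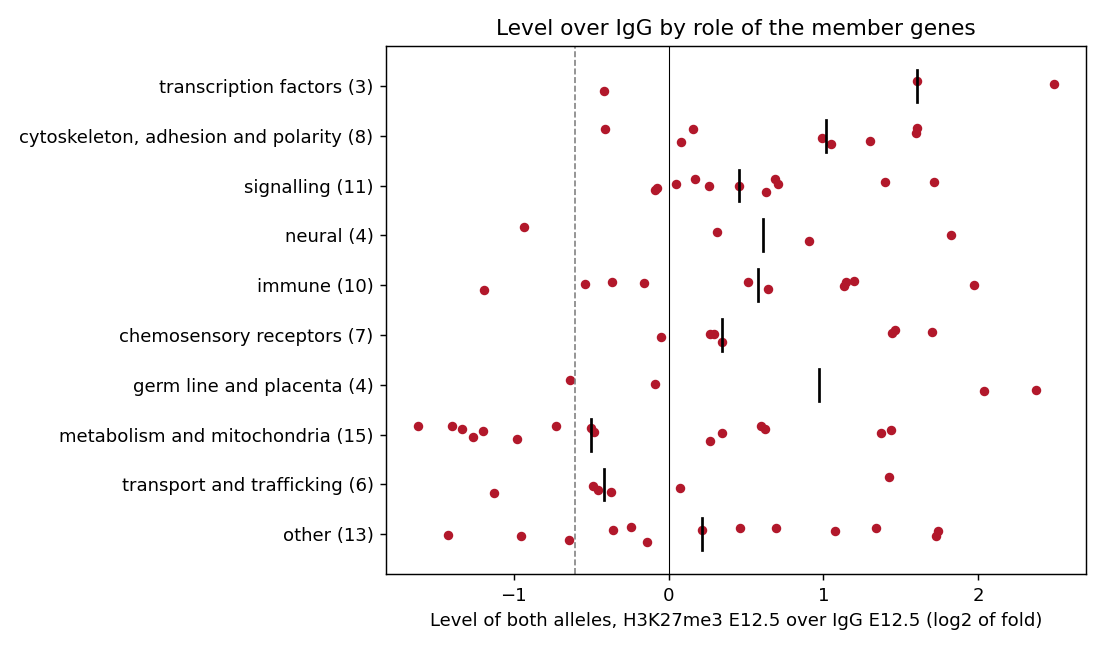
H3K27me3 E12.5 over IgG E12.5 level of both alleles (log2 of fold, linear axis) for each member, by role with the number of members. Black bars are group medians, the solid line is the IgG level and the dashed line the median eligible gene. Metabolic and mitochondrial genes and those of transport and trafficking have the lowest group medians at this stage, 0.707-fold and 0.751-fold, and the point for Prl3d3 in the germ line and placenta row rests on 0 IgG reads.

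The fixed lists held 0 members. Members were 0.627% of all eligible genes, so under 1 would fall in each list at that share, and nothing about the members is read from these counts. The lists had 23 eligible germline and meiosis genes, 19 Polycomb subunit genes, 11 genes known for oocyte H3K27me3 imprints, 29 canonical imprinted genes not left out by the rule and 12 housekeeping genes. The medians of their shares at E12.5 ran from 47.1% to 51.8%. Developmental regulators named by symbol held 1 member, Pou2f3, among 101 eligible genes (0.990%). There were 0 members among 287 zinc finger genes, 74 potassium channel genes, 67 genes of Wnt, Fgf, Bmp and related ligands, 34 keratin genes, 24 protocadherin genes and 9 Hox genes. At 0.627% these classes are too small for a count of 0 to set them apart.

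Members lay on all 19 autosomes, from 1 each on chromosomes 3, 10, 12, 13 and 19 to 12 on chromosome 7. As a share of eligible genes they ran from 0.154% on chromosome 10 to 1.23% on chromosome 15. Certain members lay near genes left out by the rule. Snhg11 lay 0.813 Mb from Nnat. On chromosome 15, Pfkm, Adcy6 and Fam186b lay 1.04, 1.53 and 2.22 Mb from Slc38a4, and Prickle1 lay 2.98 Mb from Slc38a1.

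Genes next to members were tilted the same way. Of the eligible genes that were not members, 109 lay within 25 kb of one, and their median share was 54.5% at E12.5 and 55.4% at E11.5, against 49.7% and 50% over all 12832 such genes. A share of at least 60% at both stages was found in 18 of them (16.5%), against 3.89% of all such genes, and in 19 of 196 (9.69%) at 25 to 100 kb. From 500 to 1000 kb it was 4.46% of 673. The median in IgG E13.5 was 50% at each distance. Without the 7 neighbours that overlap a member the values within 25 kb were 54.5% and 56.3%. These genes were not chosen by the rule, but genes that lie side by side share chromatin and are not independent, so no test is given.

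**Figure D5:**
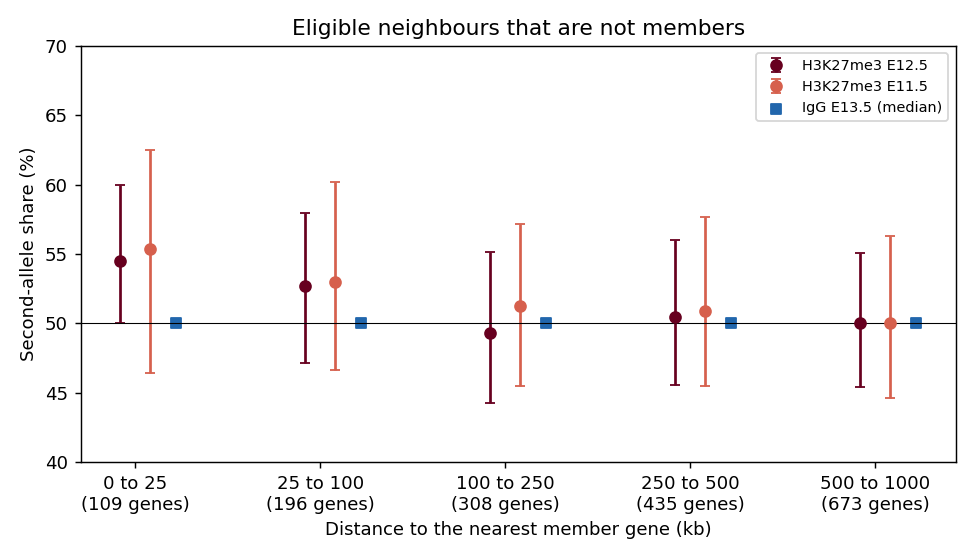
Second-allele share (%, axis from 40 to 70) of eligible genes that are not members, by distance to the nearest member in kb. Circles are medians with interquartile ranges in H3K27me3 E12.5 and E11.5, and squares are medians in IgG E13.5. The H3K27me3 medians are highest within 25 kb (54.5% and 55.4%), and the IgG medians are at 50%.

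The closest members formed a block on chromosome 14. Dhrs4, a retinal reductase gene, Carmil3, a regulator of actin capping, and Pck2 lie between 55478741 and 55550020, with 0.311 kb between the first pair and 32 kb between Carmil3 and Pck2. Carmil3 had 439 of 575 second-allele reads at E12.5 (76.3%) and 242 of 303 at E11.5 (79.9%), against 51.8% of 56 in IgG E12.5. Its second allele was 12-fold IgG E13.5 at E12.5 and its first 2.60-fold. Over IgG E12.5 the folds were 4.39 and 1.49. In IgG E13.5 its share was 40.4%, near the lower limit of the rule, with fewer reads on the second allele there. Dhrs4 had 81.0% of 153 and 88.0% of 83, against 33.3% of 36 in IgG E12.5.

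Between Carmil3 and Pck2 lie Cpne6, a copine gene (62.1% of 282 reads at E12.5 and 70.8% of 137 at E11.5), and Nrl, a photoreceptor transcription factor gene (73.0% of 163 and 69% of 100). Nrl was not eligible, with 69.8% in IgG E13.5, although it had 42.9% of 14 reads in IgG E12.5. The next gene past Pck2, Dcaf11, had 43.8% of 32 and 40% of 15, with folds over IgG E13.5 of 0.704 on the second and 0.733 on the first allele. The tilt toward the second allele thus did not extend to Dcaf11, whose reads were also fewer. This and the following loci were picked after the members and their values were known.

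A looser group lay on chromosome 15 between Pfkm, the muscle phosphofructokinase gene (71.5% of 207 reads at E12.5 and 70% of 110 at E11.5), and Adcy6, 458 kb apart. Of the 22 genes in this span and 50 kb on either side, all had at least 10 reads at both stages and 17, the 2 members included, had a share above 50% at both. Olfr288 (67.8% and 66.3%), Zfp641 (61.6% and 71.2%) and Cacnb3 (60.9% and 62.3%) are examples, and Olfr281 (52.8% and 51.7%) was near even. Several of these genes were themselves tilted in IgG E13.5, such as Asb8 at 68.2%.

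On chromosome 9, Crabp1 and Chrnb4 lie 255 kb apart. Beside Chrnb4, the nicotinic subunit genes Chrna3 and Chrna5 had 65.7% and 55.7% at E12.5 and 63.6% and 48.7% at E11.5, so the 3 adjacent receptor genes differed in share. Ireb2, which lies between Crabp1 and the receptor genes, had 47.4% and 51.6% and was at 0.33-fold IgG E13.5 on each allele.

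Overlapping genes limit certain members. By RefSeq coordinates, available for 80 of the 81 members, 9 overlap at least 1 other gene of the files, such as Pfkm with Senp1, Tstd2 with Ncbp1 and Tmod1, and 1700008O03Rik with Shank1 and Syt3. How reads in such overlaps were assigned is not given in the sources used here. Among the 30 members with at least 100 reads at E11.5, the overlapping ones are Fam186b, Pfkm and 1700008O03Rik.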

How the data were processed

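CUT&RUN reads were taken from 5 deposited files, 1 per group. The other 3 samples of the labels, second replicates of H3K27me3, are not analysed here. The deposited counts per gene and allele are raw, and the deposited fraction equals second-allele reads over the sum (largest difference below 1e-12). Per the submitters' processing notes, tools included Bowtie2 2.4.2, GATK and featureCounts, and the build was mm10. How alleles were assigned, whether duplicates were removed and whether strand was used is not stated. Reads without a variant carry no allele, so levels also depend on variant density. Autosomal allelic reads were 5020062 (H3K27me3 E12.5), 2356356 (H3K27me3 E11.5), 1357583 (male IgG E11.5), 1515532 (IgG E12.5) and 5705401 (IgG E13.5).

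Levels were scaled to these totals (RPM, pseudocount 1). Intervals are exact binomial (95%), and PCR duplicates may remain among the reads. The exact binomial test used scipy 1.17.1 and Benjamini-Hochberg adjustment at 0.05. Tested on simulated data, it recovered 69% of 200 genes set to a share of 80% in IgG E12.5 (14661 genes) and 62% in male IgG (14026 genes). These genes had medians of 47 and 43 reads and the 81 members 29 and 20, so recovery at the members' depth was not measured. Named genes were the 12 most read, the 6 highest and 4 lowest over IgG E12.5, the 5 highest shares, and those at the threshold. Others were named by role or position after their values were seen. Members and lists were chosen with earlier results of these data known. Values of certain single members are not reported here.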

Additional observations from a re-analysis of the deposited data

How the results depend on the processing

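The number of members depended on the thresholds. It was 209 at a share of 65%, 28 at 75% and 13 at 80%. It was 53 with an IgG E13.5 share of 45 to 55%, and 45 when IgG E12.5 had to be balanced too, a setting that needs 10 reads there. With 20 reads in H3K27me3 and 40 in IgG E13.5 it was 58. Without the members known to overlap another gene it was 72, an alternative added after seeing the data. Coordinates were available for 80 of the 81 members, so the 72 include a member whose overlap is unknown.

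The folds of pooled reads moved with the control, at E12.5 and E11.5 in turn. Over IgG E12.5 they were 2.4 and 2.59 (second allele), 0.763 and 0.80 (first) and 1.58 and 1.70 (both). Over male IgG they were 2.63 and 2.84, 0.873 and 0.917, and 1.77 and 1.90. Relative to the median eligible gene they were 4.02 and 4.26, 1.28 and 1.36, and 2.69 and 2.86, so the first allele at E12.5 turned from below to above 1. Without Shroom3, chosen after seeing the data, they were 2.64 and 2.90, 0.826 and 0.858, and 1.75 and 1.89, against 1.93 and 2.07 for both alleles with it. A pseudocount of 5 gave a median over IgG E12.5 of 1.31 at E11.5. At 3-fold, 12 members were past the threshold over IgG E12.5. Against a null of 50%, 1 member, Prickle1, was called in IgG E12.5 (exact binomial, adjusted p = 0.0487). Against the pooled autosomal share, 0 were called with a minimum of 20 reads or with none.

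No paired analysis was possible because each group had 1 library with a file, and leaving out a replicate was not possible. Depth limits the 19 members with 10 to 19 reads at E11.5 most.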
